A study of Mytilus galloprovincialis with 40 samples.

Results

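Female mussels (Mytilus galloprovincialis) sampled in November 2007 were compared with females sampled in October 2007, the late autumn step of an annual survey of the digestive gland. The step consists of the 3 arrays titled Nov/Oct, out of 40 arrays covering 12 months, and all 1920 cDNA clones with a Myt code were described on each of them. On every array the total RNA of a single November female was labelled with one dye and that of a single October female with the other, so that each array gives the ratio of 1 pair of animals. The November animal was in Cy5 on replicate 1 and in Cy3 on replicates 2 and 3. All animals came from the Bizerta Lagoon in Tunisia, none was treated, and the study took its females from the gonadal stage that was most represented. Gonad development changed over the year, and the paper places November 2007 at the early stage. The stage of the October females was not known here, so month and stage may differ together. The labels do not say whether an October or November female was used again on an array of a neighbouring step, so the p-values measure the spread between arrays.

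The digestive gland is the organ in which a filter-feeding mussel takes up and breaks down its food inside cells, stores reserves and handles metals and other toxicants. Its transcript levels are known to follow food supply, water temperature and the reproductive cycle, all of which turn over in autumn. A cDNA array of this type measures relative mRNA abundance, and a log2 ratio of 1 between the animals of an array stands for a 2-fold difference. The files used here name each clone by a position code and do not pair the codes with genes. The codes are not gene identifiers, so a search of the RefSeq gene table for them, with 0 matches, could not have named genes. Gene names, pathway lists and markers of the tissue were therefore not analysed here.

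The 3 arrays differed in quality. Clone spots above local background by 2 SD in both channels made up 20.6% on replicate 1, 31.3% on replicate 2 and 56.2% on replicate 3, within a range of 13.6% to 78.4% over all 40 arrays. On each array the November channel, whichever dye it carried, had the smaller share of spots above background. The shares were 21.4%, 32.4% and 57.3% in the November channel, against 40.1%, 60.3% and 74.3% in the October channel. Duplicate spots had an r of 0.67 on replicate 1, 0.84 on replicate 2 and 0.96 on replicate 3. Replicate 1 thus had the smallest share of spots above background, and its log2 ratios also spread least. Their SD over the clones was 0.42, against 0.70 on each of the other 2. Over all 40 arrays this SD ran from 0.31 to 0.70, with a median of 0.43. Replicate 1 was thus near the median of the series in this respect, and replicates 2 and 3 had the widest ratios of all arrays.

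Some arrays of other steps stood apart, and they enter the fit through the loop. The ratios of Apr/Mar replicate 1 ran against those of the other 3 arrays of its step, with r of -0.81 to -0.62 across clones. Its labels state the dyes, and it was used as labelled. Replicates 2 and 3 of Dec/Nov had clone ratios that correlated with r = 0.93, and within-clone differences between duplicate spots were also shared by them (r = 0.47). Replicates 2 and 4 of Mar/Feb shared this scatter too (r = 0.56), while in the rest of the 48 pairs of arrays of 1 step it reached at most 0.09. The labels do not say whether these pairs are repeats of the same hybridization. The main counts are given below also with each such pair averaged and with the sign of Apr/Mar replicate 1 turned.

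Relative mRNA abundance in November differed from that in October for 185 of the 1920 clones (9.64%), of which 127 were higher (6.61%) and 58 lower (3.02%) in November. A clone was called where limma, fitted to the whole loop of 40 arrays, gave a Benjamini-Hochberg adjusted p under 0.05 over all clones together with log-odds B above 0. An unadjusted p under 0.05 was found for 576 clones and an adjusted p under 0.05 for 406. The split between higher and lower calls moved with the scaling of the arrays: with median centring in place of loess 72 clones were called higher and 53 lower. The split was even with the 3 Nov/Oct arrays fitted alone, at 25 higher and 25 lower. Replicate 3 weighed most on the counts. Without it 94 clones were called, 74 of them higher and 20 lower, and without replicate 2 the lower calls numbered 35. With the doubtful pairs averaged to 1 array each the count was 176 (122 higher, 54 lower), and with the sign of Apr/Mar replicate 1 turned it was 211 (131 higher, 80 lower), 184 of them among the 185.

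**Figure D1:**
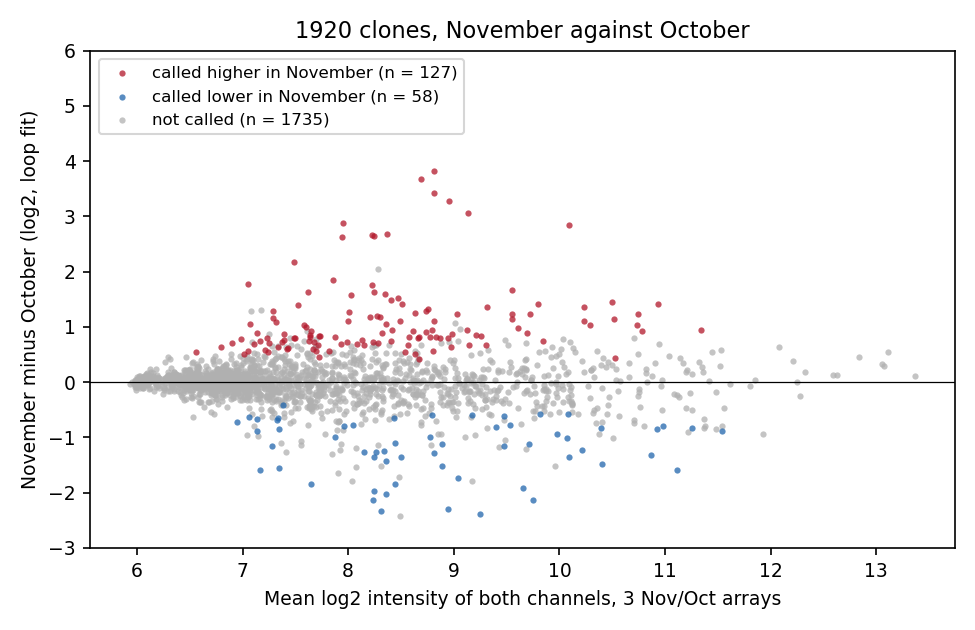
Difference between November and October (log2, loop fit) of 1920 clones, plotted against the mean log2 intensity of both channels on the 3 Nov/Oct arrays. Each point is a clone; the 127 called higher and the 58 called lower in November are coloured, and nearly all of them lie to the right of the dimmest clones.

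The calls came from the brighter clones. Of the 480 dimmest clones by mean intensity 1 was called higher and 0 lower, while the 480 brightest held 55 higher and 31 lower calls. The next 480 above the dimmest held 19 higher and 10 lower calls, and the 480 after these 52 and 17. In all, 375 clones were above background in neither month on any of the 3 arrays.

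The 3 arrays carry 90.9% of the weight of the fitted difference by which clones were called, so the sign of the called clones on them is a description of the calls. Of the clones called higher 124 of 127 were above 0 on all 3 arrays, and of those called lower 57 of 58 were below 0 on all 3. Over all clones 913 of 1920 (47.6%) kept 1 sign on the 3 arrays, 472 of them positive and 441 negative. The sizes were smallest on replicate 1. The clones called higher had a median log2 ratio of 0.61 there, 1.16 on replicate 2 and 1.17 on replicate 3. Those called lower had medians of -0.83, -1.14 and -1.35. The medians over all clones were between -0.0001 and 0.02.

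**Figure D2:**
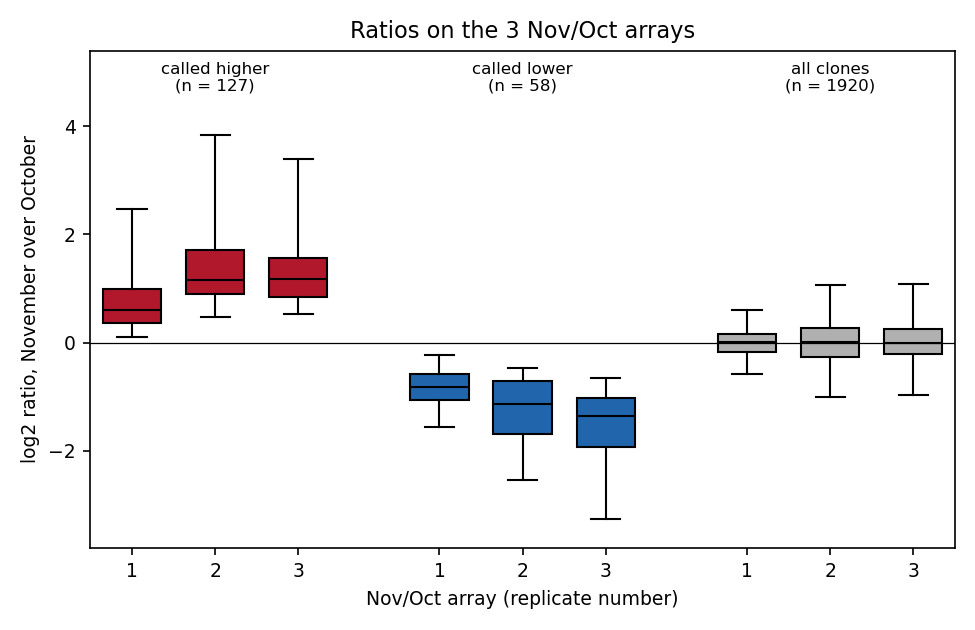
log2 ratios (November over October) on each of the 3 Nov/Oct arrays for the clones called higher, the clones called lower and all clones. Boxes give the quartiles and the median, whiskers the 5th and 95th percentiles; the medians of the called groups are smallest on replicate 1 (0.61 and -0.83).

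Across clones, the log2 ratios of replicates 1 and 2, which have opposite dyes, correlated with r = 0.60, those of replicates 1 and 3, also of opposite dyes, with r = 0.74, and those of replicates 2 and 3, which have the same dyes, with r = 0.75. Among clones brighter than the median the values were 0.66, 0.82 and 0.76. The clones of an array share its 2 animals, dyes and hybridization, and these correlations describe 1920 points that are not independent. The agreement between opposite dyes was thus of the same order as that within 1 orientation.

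Most of the differences were moderate. The clones called higher had fitted folds between 1.33 and 14.2, with a median of 1.87-fold. Of these, 13 were under 1.5-fold, 59 between 1.5 and 2-fold, 43 between 2 and 4-fold, 7 between 4 and 8-fold and 5 above 8-fold. The clones called lower ran from 1.33 to 5.26-fold, with a median of 2.18-fold, and 3, 22, 27 and 6 of them fell into the same first 4 classes, with 0 above 8-fold. The lower group was thus the smaller one, and its median fold was the larger of the 2, a difference that was not tested. Fitted to the 3 Nov/Oct arrays alone, limma called 25 clones higher and 25 lower. A criterion without the fit gave a shorter list: 42 clones (2.19%) passed 2-fold in the same direction on each of the 3 arrays, 24 higher and 18 lower in November, and 36 of the 42 were among the called clones.

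The 5 clones that were more than 8-fold higher in November had log2 ratios of 2.47 to 2.80 on replicate 1, 3.96 to 5.06 on replicate 2 and 3.39 to 5.07 on replicate 3. Only 2 of the 5 were above background in both months on all 3 arrays. The 6 clones lower by 4-fold or more had log2 ratios of -2.15 to -0.81 on replicate 1, -2.97 to -1.90 on replicate 2 and -3.65 to -2.33 on replicate 3, and 0 of the 6 were above background in both months on all 3 arrays. There were 12 higher and 6 lower clones with a fitted fold of 4 or more. Of these, 3 and 2 had a month that was above background on none of the 3 arrays. Only bounds hold for them, at least 4.39- to 7.77-fold higher and at least 4.42- to 4.82-fold lower. These bounds come from the channel levels of the 3 arrays and can exceed the fitted fold. Most of the clones described here thus had a month that was not above background on at least 1 array.

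Clones with the strongest evidence (largest B) were singled out in each direction. Myt01-019A06 had the highest B of all. Its normalized log2 intensity was 11.12, 11.67 and 12.10 in the November animals of replicates 1, 2 and 3, against 8.58, 8.86 and 8.45 in the October animals, so that the groups lay far apart. The log2 ratios were 2.54, 2.81 and 3.65, or 3.0 ± 0.58 (SD, n = 3 arrays), and the fitted difference was 2.84 ± 0.21 (SE; 7.15-fold, limma adjusted p = 1.32e-11). The clone was above background in both months on all 3 arrays. The SE and p of the loop fit draw on the spread between arrays of all steps. With the 3 Nov/Oct arrays fitted alone, the limma adjusted p of Myt01-019A06 was 0.0213. It was also 0.0213 for each of Myt01-001G04, Myt01-017B08 and Myt01-013F06, described below.

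Myt01-001G04 had nearly the same ratios at a lower brightness. Its log2 intensity was 10.18, 9.23 and 9.39 in the November animals, against 7.65, 6.71 and 6.10 in the October animals, again without overlap. Its log2 ratios were 2.53, 2.51 and 3.29 (mean 2.78 ± 0.44, SD, n = 3), with a fitted difference of 2.66 ± 0.20 (SE; 6.31-fold, limma adjusted p = 1.32e-11).

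**Figure D3:**
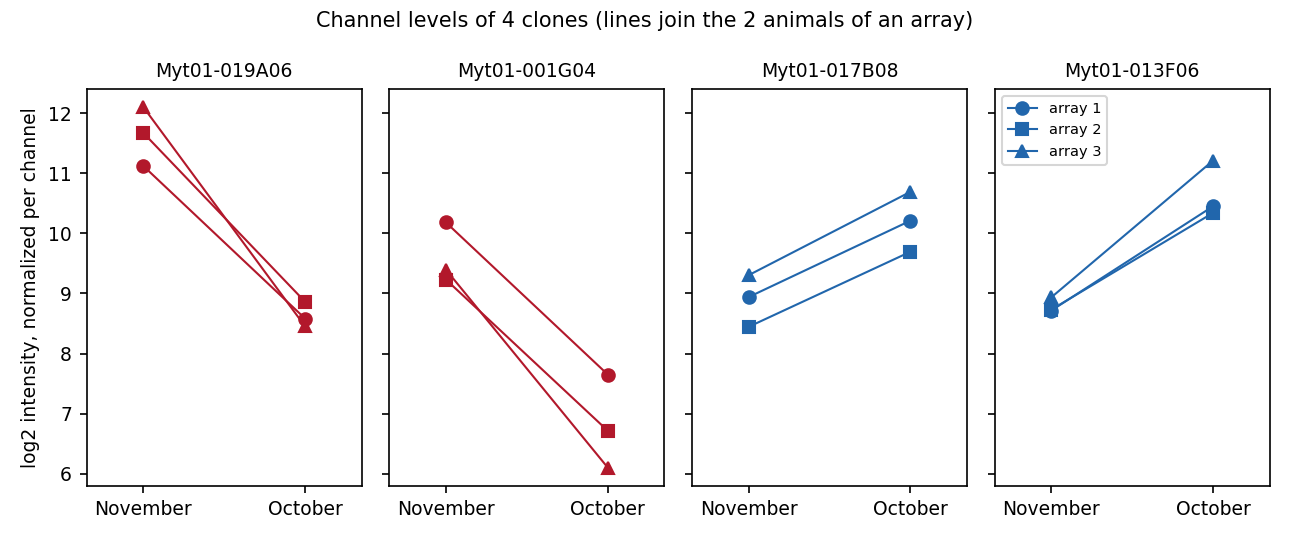
Normalized log2 intensity of 4 clones in the November and the October animal of each Nov/Oct array; lines join the 2 animals of an array. Myt01-019A06 and Myt01-001G04 are higher and Myt01-017B08 and Myt01-013F06 lower in November on each of the 3 arrays.

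Among the clones called lower, Myt01-017B08 stood out by its small spread. It had log2 intensities of 8.94, 8.44 and 9.30 in the November animals, against 10.21, 9.69 and 10.69 in the October animals. The ratios were nearly equal on the 3 arrays, at -1.27, -1.25 and -1.39 (mean -1.30 ± 0.08, SD, n = 3), and the fit gave -1.15 ± 0.14 (SE; 2.22-fold lower, limma adjusted p = 2.46e-07). The channel levels of different arrays spread by 0.43 in November and 0.50 in October (SD), several times more than the ratios within an array.

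Myt01-013F06 had log2 intensities of 8.72, 8.73 and 8.93 in the November animals, against 10.45, 10.34 and 11.21 in the October animals, with no overlap. Its ratios were -1.74, -1.61 and -2.28 (mean -1.87 ± 0.36, SD, n = 3) and its fitted difference -1.91 ± 0.24 (SE; 3.77-fold lower, limma adjusted p = 4.77e-07). The November animal was above background on 2 of the 3 arrays, and the October animal on all 3.

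For 21 called clones 1 of the months was not well above background on any of the 3 arrays. Only a lower bound of their fold on these arrays can then be given. October was the dim month for 9 clones called higher and November for 12 called lower. Taking the dim month at the higher of its own signal and the lowest signal of a clone above background on that array and channel, after loess and Aquantile scaling, the bounds ran from at least 1.09-fold to at least 7.77-fold, with a median of 1.86-fold. With these clones at their bound the median fold was 1.89-fold for the clones called higher and 2.01-fold for those called lower. The bounds rest on the channel levels of the 3 arrays and not on the loop fit, so that some exceed the fitted fold. For Myt01-008E02 the fitted log2 difference was 2.88 and the bound 7.77-fold. These bounds are open to dye bias, because the dyes were not balanced over the 3 arrays. In 1 further called clone neither month was above background. In both months and on all 3 arrays, 51 of the 127 clones called higher and 17 of the 58 called lower were above background, against 385 of all 1920.

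The next question was whether the difference was still present when the months on either side were used. December against October gave 93 called clones (4.84%), 64 higher (3.33%) and 29 lower (1.51%) in December, with 363 at an unadjusted p under 0.05. November against September gave 102 (5.31%), 72 higher (3.75%) and 30 lower (1.56%) in November. Without Nov/Oct replicate 3 the November against September count was 64. These contrasts share October or November with the Nov/Oct step and run through its 3 arrays, so that they repeat part of its error.

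Side by side, the 127 clones called higher in Nov/Oct had a median of 0.90 in November minus October, 0.80 in December minus October and 0.81 in November minus September (log2, loop fit). The 58 called lower had medians of -1.12, -0.81 and -0.89 in these contrasts. Over all clones the 3 medians were 0.007, -0.008 and 0.01. Since the groups were chosen on November minus October, both other contrasts would equal it by construction if the neighbouring step were 0. Without the Nov/Oct arrays limma called 1 clone in December against October and 2 in November against September, with 124 and 137 at an unadjusted p under 0.05.

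The leading higher clones had still larger differences from October in December. Myt01-019A06 stood 3.62 ± 0.29 (SE) above October in December, and its Dec/Nov ratios were 0.16, 1.37 and 1.31. Myt01-001G04 stood 3.38 ± 0.27 above October, with Dec/Nov ratios of 0.37, 1.12 and 1.04. In both clones the first Dec/Nov array, of opposite dyes to the other two, gave the smallest step. With the pairs of arrays that share spot scatter averaged to 1 each, 73 clones were called in December against October and 93 in November against September, and with Apr/Mar replicate 1 turned 109 and 124.

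Among the lower clones Myt01-017B08 had Dec/Nov ratios of -0.56, -0.52 and -0.50 and a December minus October difference of -1.53 ± 0.19 (SE), while Myt01-013F06 was at -1.94 ± 0.33 against October. Against September the picture differed between these clones. Myt01-017B08 had Oct/Sep ratios of 0.25, 0.65 and 0.85, and its November minus September difference of -0.42 ± 0.19 was not called (limma adjusted p = 0.159), while Myt01-013F06 was called at -1.71 ± 0.33. Both leading higher clones were called in November against September, Myt01-019A06 at 2.97 ± 0.29 and Myt01-001G04 at 2.38 ± 0.27. The strongest clone called lower in December against October apart from Myt01-017B08 was Myt01-016G08, at -3.88 ± 0.50 (SE; limma adjusted p = 1.13e-06). Its Nov/Oct ratios were -0.74, -2.38 and -1.26 (mean -1.46 ± 0.84, SD, n = 3), and the fitted -1.18 ± 0.37 had an adjusted p of 0.02 but a B below 0, so that it was not called. Its Dec/Nov ratios were -2.51, -3.20 and -3.25 and its Jan/Dec ratios 3.08, 2.16 and 2.11. The larger ratios of this clone thus lay in the step after Nov/Oct.

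Relative to October, the clones called higher had median log2 levels of 0.31 (May), 0.32 (June), 0.28 (July), 0.11 (August) and 0.09 (September). The median was 0.90 in November and 0.80 in December, then 0.59 in January, 0.56 in February, 0.52 in March and 0.47 in April. The clones called lower had medians between -0.46 and -0.17 from May to September, reached -1.12 in November and were at -0.81 in December, -0.77 in January, -0.55 in February, -0.50 in March and -0.23 in April. October was thus the lowest month of the median course of the higher group and the highest month of that of the lower group. Since the groups were chosen by their distance between October and November, the extreme position of these 2 months is a description of the choice, and the loop returns to its start by construction.

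**Figure D4:**
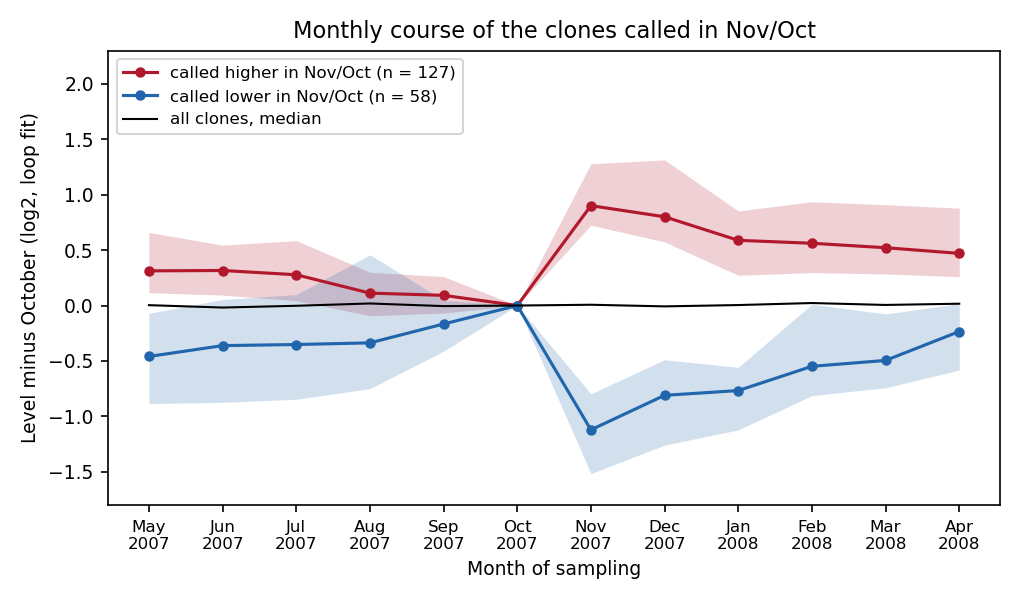
Level of the clones called in Nov/Oct in each month minus their level in October (log2, loop fit), May 2007 to April 2008. Lines with points are medians of the 127 clones called higher and the 58 called lower, bands their quartiles, and the black line the median of all 1920 clones, which lies between -0.02 and 0.02.

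The arrays of single steps give the course without the loop. In Oct/Sep, which shares October, the clones called higher in Nov/Oct had a median ratio of -0.01, and in Dec/Nov, which shares November, 0.03. The clones called lower had 0.19 in Oct/Sep and 0.11 in Dec/Nov. In the Nov/Oct arrays, on which the groups were chosen, the medians were 0.95 and -1.13, and a larger value there than in the neighbouring steps follows from that choice.

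January against December is the nearest later step that has neither month in common with Nov/Oct, although the fit that called the members also holds its arrays. The clones called higher in Nov/Oct were mostly lower in January than in December: 107 of 127 had a negative mean ratio, against 936 of all 1920 clones, and their median was -0.28, against 0.003 over all clones. The median was -0.205, -0.288 and -0.303 on the 3 Jan/Dec arrays, so that the median had the same sign in both dye orientations. Replicate 1 is the only Jan/Dec array of its orientation. Across all clones its ratios correlated weakly with those of replicates 2 (r = 0.10) and 3 (r = 0.27), while replicates 2 and 3 had r = 0.61. Of the 127 clones 20 were called lower in January (0 higher), where limma called 29 (1.51%) of all clones lower and 22 (1.15%) higher, 51 in all (2.66%). Fitted without the Nov/Oct arrays, the Jan/Dec step had 21 of the 127 called lower, and without each Jan/Dec array in turn 15 to 24. The number was 20 with the pairs averaged and 20 with Apr/Mar replicate 1 turned. All these refits kept the same 127 clones, and the group was not chosen anew without the Jan/Dec arrays. Through the closing of the loop a negative Jan/Dec ratio itself raises the fitted November minus October difference. The Jan/Dec contrast rests mostly on its own arrays, so leaving out the Nov/Oct arrays could change it little. The refits therefore do not test the effect of the choice. The 58 clones called lower in Nov/Oct had a median of 0.04 in this step, with 33 of 58 positive, and 4 were called higher in January and 0 lower.

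Other steps that share no month with Nov/Oct went either way for the higher group. In Aug/Jul 14 of the 127 clones were called lower and 0 higher, where 62 of all clones (3.23%) were called lower, and the median ratio of the group was -0.18. In May/Apr, which sets May 2007 over April 2008 and so closes the loop, 14 were called lower in May and 0 higher, where 78 of all clones (4.06%) were called lower, and the median was -0.06. In Sep/Aug the median was 0.07, with 86 of the 127 clones positive. In Feb/Jan 9 were called higher and 2 lower, where 43 of all clones (2.24%) were called higher and 16 (0.833%) lower, and the median was 0.02.

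The leading clones had larger Jan/Dec ratios, in size, than the medians of their groups. Myt01-019A06 had Jan/Dec ratios of -0.61, -2.09 and -2.20 and Myt01-001G04 ratios of -0.42, -1.76 and -2.57. The leading lower clones had positive ratios, 0.87, 0.35 and 0.53 for Myt01-017B08 and 0.37, 1.47 and 1.58 for Myt01-013F06, where the median of the lower group was 0.04. Of the 12 clones with a fitted fold of 4 or more in November, 11 had a negative mean ratio in Jan/Dec.

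The clone codes contain a number that is read here as that of the source plate, followed by the well, and the array holds 20 such plates of 96 clones. The clones called higher were unevenly spread over them, a pattern that was looked for after the calls were known. Plates 1, 2 and 3 held 26, 20 and 18 clones called higher, together 64 of the 127 (50.4%), with 15% of all clones. Of their 288 clones 22.2% were called higher, against 3.86% of the 1632 clones of plates 4 to 20. The lower calls were not gathered there: plates 1 to 3 held 1 of the 58, and plates 4 to 20 the other 57.

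**Figure D5:**
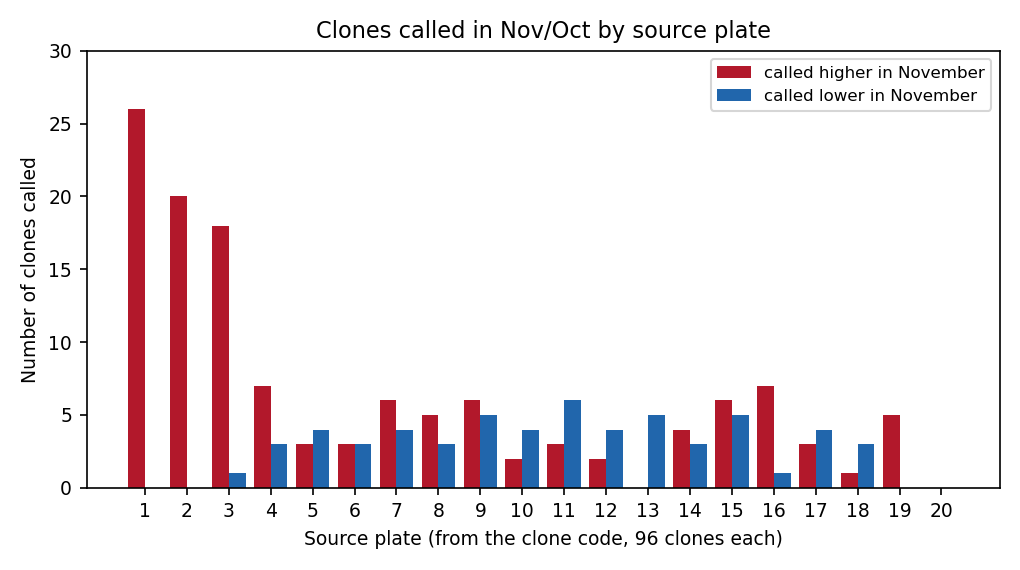
Number of clones called higher and lower in November on each of the 20 source plates (96 clones each), read from the clone codes. Plates 1 to 3 hold 26, 20 and 18 higher calls; no other plate holds more than 7.

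The ratios of plates 1 to 3 were also described over all their clones, the called ones included. Positive ratios on all 3 arrays were found for 146 of their 288 clones (50.7%), against 326 of 1632 (20%) on the other plates. Their median log2 ratio was 0.08 on replicate 1, 0.24 on replicate 2 and 0.26 on replicate 3, against -0.01, -0.02 and -0.03 on the other plates. All 3 arrays thus moved the same way, in both dye orientations.

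Plates printed next to them had fewer higher calls. Plate 4, printed in the same grid rows as plates 1 to 3 but in other blocks, had 7 higher and 3 lower calls. Plates 5 to 7, printed in the same blocks as plates 1 to 3 but shifted by a row, had 12 higher and 11 lower calls. With a loess curve for each print-tip block plates 1 to 3 held 68 higher calls, and 40 with median centring. Without replicate 3 they held 39, and with the 3 Nov/Oct arrays fitted alone 14 of 25. The 16 print-tip blocks held between 4 and 13 higher and between 0 and 10 lower calls each.

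In the other 11 steps of the year between 0% and 3.12% of the clones of plates 1 to 3 were called higher, the most in Feb/Jan, where 2.08% were on the other plates. Between 0% and 5.9% were called lower, the most in May/Apr, against 3.74% on the other plates. In Jan/Dec plates 1 to 3 held 10 of the 29 lower calls, 3.47% of their clones against 1.16% on the other plates. The 64 clones called higher on these plates and the 63 on the other plates had similar values in the later steps: the median Dec/Nov ratio was 0.03 and 0.04, and the median Jan/Dec ratio -0.31 and -0.27. Their fitted folds had medians of 1.79 and 1.90. What the clones of plates 1 to 3 have in common was not tested.

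The closing of the loop offers a second route from October to November that does not use the 3 Nov/Oct arrays, through the 37 arrays of the other 11 steps. It is much less precise, with a median SE of 0.47, and the 3 direct arrays carry 90.9% of the weight of the fitted difference. By this route limma called 0 clones, with 121 at an unadjusted p under 0.05. The signs went with the direct arrays in most called clones. Of those called higher, 101 of the 127 were positive (79.5%), where 49.8% of all clones were. Of those called lower, 50 of the 58 were negative (86.2%). Both groups were chosen on the loop fit, which already includes this route, so this sign agreement is partly built into the choice. The median was 0.45 and -0.67 in these groups, smaller than on the direct arrays. Across all 1920 clones the indirect and the direct difference correlated with r = 0.24. This route starts and ends with other arrays of October and November and may use the same animals, so that it is not an independent sample of these months.

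For single clones the second route was wide. It gave 1.18 ± 0.61 (SE) for Myt01-019A06, 1.43 ± 0.63 for Myt01-001G04 and -2.31 ± 0.83 for Myt01-013F06, each with the sign of the direct arrays. It gave 0.36 ± 0.40 for Myt01-017B08 and 1.64 ± 1.11 for Myt01-016G08, against the sign of the direct arrays. The means of the direct arrays were 3.0, 2.78, -1.87, -1.30 and -1.46 for these clones in the same order. In all but Myt01-013F06 the direct mean lay more than 2 SE of the second route away from its value. The 2 routes thus differed for most of the named clones, and the reason was not tested. On the second route the values of Myt01-019A06, Myt01-017B08 and Myt01-016G08 were within 2 SE of 0, and none of the 5 clones was called, with limma adjusted p between 0.554 and 0.943. Apr/Mar replicate 1, whose ratios ran against its own step, lies on this route.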

How the data were processed

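The authors read spot intensity values (mean foreground and local background of each dye, no normalization) from slides scanned in a ChipReader with GenePix and deposited 1 file per array; the Cy5 and Cy3 channels were assigned to months by the labels. They also deposited log2 ratios of the later over the earlier month for each spot, which were used as an alternative only. With limma's normexp (offset 50) and loess over all spots, 38 of its 40 columns could be recomputed. The 2 others repeated, with the opposite sign, an array of the same step and were left out. They belong to Dec/Nov replicate 3 and Mar/Feb replicate 4, each 1 array of a pair described above that shares spot scatter.

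Each array had 4560 spots, with 1920 clones in 2 spots each. Background correction used normexp (offset 50), and a global loess curve through the clone spots (span 0.3, 4 iterations) normalized the log2 ratios, which were turned to later over earlier month (May 2007 over April 2008 in May/Apr), and averaged over the 2 spots of a clone. limma 3.58.1 in R 4.3.3 was fitted to all 40 arrays with January as the month of reference (29 residual and 3.68 prior degrees of freedom), and contrasts were taken for November minus October, December minus October, November minus September and the steps. A clone was called at a Benjamini-Hochberg adjusted p under 0.05 over 1920 clones and B above 0. The number of arrays limits the precision. Simulated Nov/Oct data in which 200 of 1920 clones were changed tested the procedure: of changes of 0.5, 1 and 2 (log2), 42%, 85% and 95% were called, and 0 unchanged clones. The simulated noise was normal and independent between arrays, with the residual SD of each clone, and the change was in November only. Shared animals, repeated hybridizations and an array of turned sign were not simulated, so the shares hold for that simpler setting.

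Named clones were the 2 with the largest B in each direction in Nov/Oct and in December against October, among those with 1 sign on all 3 Nov/Oct arrays. The comparisons, lists and this rule were chosen with earlier results of these data known. The deviations of same-numbered arrays of neighbouring steps from their step means correlated with r between -0.06 and -0.01. For differently numbered arrays r was between -0.04 and 0.07. Deviations from a step mean cancel out within the step, so these r values depend on each other. An animal shared by 2 steps enters them with opposite sign and would give a negative r. These small values therefore do not decide whether animals were shared, and the numbers were not used for pairing. Alternatives were plain subtraction or none for background, median centring, print-tip loess, loess over all spots, scaling between arrays, a filter on dim clones, a dye term, array weights, the 3 arrays alone, the authors' log2 ratios, each criterion of the call rule alone, a replicate block, an open loop (closing step removed) and leaving out each array. The fit without the Nov/Oct arrays, the averaged pairs and the turned array were added after seeing the data. No sequences of the clones were used here.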

Additional observations from a re-analysis of the deposited data

Results flagged for a closer look

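In the first Apr/Mar array the clones called lower in Nov/Oct had a median log2 ratio of -0.278, while the other 3 arrays of that step had 0.307 to 0.354. In the fourth Mar/Feb array the same clones had a median of -0.0393, against 0.0349 to 0.0388 on the other 3. In both cases the gap to the nearest array, as a share of the range of the 4 arrays, exceeded Dixon's critical value. Of 8 such sets of 4 arrays 2 were singled out in this way, where chance gives about 1 in 20. In Apr/Mar the 127 clones called higher had medians between -0.04 and 0.04 on the 4 arrays.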

How the results depend on the processing

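The Nov/Oct count of 185 stayed within 1.5 times of its value in 13 of 18 alternatives. It was 111 with scaling between arrays, 123 when only the 811 clones above background in at least 1 channel on all 3 Nov/Oct arrays were tested, 50 with the 3 Nov/Oct arrays alone (488 at an unadjusted p under 0.05), 406 with the adjusted p alone and 0 in the loop without these arrays. December against October had 56 calls with median centring, 147 with array weights, 178 with the adjusted p alone and 1 without the Nov/Oct arrays, in place of 93. November against September had 52 with median centring, 66 with scaling, 232 with the adjusted p alone and 2 without the Nov/Oct arrays, in place of 102. With 1 array left out in turn the counts ran from 94 to 206, from 68 to 114 and from 64 to 129 in these 3 comparisons. Clones with 1 month not above background numbered 38 at 3 SD in place of 21. The 4 clones named for Nov/Oct kept their sign and their call in every alternative that used the Nov/Oct arrays; without them Myt01-017B08 (0.359) and Myt01-016G08 (1.64) changed sign. With 1 array left out the fitted differences of Myt01-019A06 ran from 2.48 to 2.97, those of Myt01-001G04 from 2.38 to 2.72, of Myt01-017B08 from -1.17 to -1.05, of Myt01-013F06 from -2.05 to -1.76 and of Myt01-016G08 from -1.37 to -0.655. The cause of these shifts was not tested, beyond fewer clones or arrays where the setting itself removes them. The labels give the same replicate numbers to every step; with a replicate block the counts were 187, 93 and 105, and the named clones kept their calls. Signal over background limits the dimmer clones, where few were called.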
